A study of Mus musculus with 18 samples.

Results

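A set of 6 genes of cellular iron handling, among the 10597 genes in the deposited tables, was followed in the left ventricles of wild-type mice and of mice lacking mORF4/NBDY, a microprotein that binds the mRNA decapping machinery. They are the ferritin chains Fth1 and Ftl1, the iron exporter Slc40a1, the transferrin receptor Tfrc and the iron sensors Aco1 and Ireb2, picked by gene symbol and matched to Ensembl identifiers. All hearts came from untreated male C57BL/6 mice aged 20 weeks, 4 wild type (hearts 1 to 4) and 5 knockout (hearts 6 to 10), the latter named only mORF4-NBDY KO in the labels. From every heart came 1 library of poly-A RNA and 1 of ribosome footprints, the pieces of mRNA covered by ribosomes.

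Ferritin is a shell of heavy (Fth1) and light (Ftl1) chains that stores iron: the heavy chain oxidises it and the light chain helps to lay down the mineral core. Tfrc brings in iron bound to transferrin, and Slc40a1, ferroportin, is the known route of iron out of cells. Aco1 (IRP1, a cytosolic aconitase when it carries an iron-sulfur cluster) and Ireb2 (IRP2) bind iron-responsive elements when iron is scarce. Bound to elements ahead of the coding sequence, as in ferritin and ferroportin mRNA, they block translation. Bound to elements behind it, as in Tfrc mRNA, they protect the transcript from decay. Heart muscle needs iron for its mitochondria and is known to be harmed by too little of it or too much.

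Promoter sequence is shown for the storage and uptake genes because the RNA of 2 of these 3 changed between genotypes. RefSeq windows (GRCm38.p6, 250 bases before to 50 after an annotated start) were matched for 5 of the 6 genes, all but Slc40a1, with 7 windows in all. TATAA, the core of the TATA box, was found on the gene strand in a window of Fth1, Ftl1 and Tfrc. It stands in capitals in these 30-base stretches, read in the direction of the gene:
Fth1, chr19:9982660-9982689, plus strand: gcaggatcccgcTATAAgtgcggcccgctg
Ftl1, chr7:45459852-45459881, minus strand: gggtcaacatgcTATAAaaggagcgctcct
Tfrc, chr16:32608938-32608967, plus strand: gtggggccgagcTATAAgctttgggtggga
Of 32851 windows in the table, 17.5% hold TATAA on the gene strand and 24.9% on either. In Fth1 the motif begins at base 27, counting the second of 2 annotated starts (9982646) as the first base. That start lies inside the gene's span. In Ftl1 the motif begins at base 18, counted in the same way from the single annotated start. In Tfrc it begins at position -172 relative to the second of 2 annotated starts. The Fth1 and Ftl1 matches thus lie after these starts, and whether any of the 3 acts as a TATA box was not tested. Across the first Tfrc start lies ACGTG, the core of hypoxia response elements, which 19.6% of windows hold on either strand:
Tfrc, chr16:32608882-32608911, plus strand: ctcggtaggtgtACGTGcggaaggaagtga
TGACNNNGC, the core of antioxidant response elements, was searched on both strands and occurs in 12.4% of windows and in none of these 7. The Aco1 and Ireb2 windows hold none of the 3 motifs, which says only that these letters are not in them.

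Values are normalized reads, that is reads of a gene divided by the authors' size factor for the library, and efficiency is the footprint value divided by the RNA value of the same heart. The RNA value thus enters both the RNA and the efficiency test of a gene, and a lower RNA alone raises efficiency. Over the listed genes, RNA libraries of wild-type hearts held 11.2 to 12.4 M reads and those of knockout hearts 15.8 to 20.2 M. Footprint libraries held 6.67 to 36.7 M reads (wild type) and 22.9 to 40.8 M (knockout). Every knockout RNA library was thus deeper than every wild-type one, and no batch is labelled, so a difference in how the RNA libraries were made and the genotype cannot be told apart in any RNA or efficiency value here. Footprints of the targeted gene, Nbdy, averaged 183 ± 116 (SD, n = 4) in wild type and 14.3 ± 3.46 (SD, n = 5) in knockout, and its RNA 111 ± 7.10 and 73.5 ± 10.7. All 8 cardiomyocyte markers looked up were listed and none was at 0. In RNA 1 rose and 4 fell, or 62.5% called against 49.4% of all genes, and 50% fell where 25.1% of all genes did. Fold changes are knockout over wild type on the log2(value + 1) scale, with the call at a adjusted p by limma below 0.05 over all genes tested.

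Transcripts of 4 of the 6 genes differed between genotypes, against 49.4% of all genes tested in RNA. Ftl1 and Slc40a1 rose, where 24.3% of all genes did, and Tfrc and Aco1 fell, where 25.1% did, while Fth1 and Ireb2 did not pass. Footprints of none of the 6 passed limma, edgeR or DESeq2, against 0.02% of all genes called by limma. At an unadjusted p below 0.05, 2 of the 6 differed in footprints, Tfrc and Fth1, where 5.06% of all genes did. In efficiency none of the 6 passed either, against 14.4% of all genes, and 3 had an unadjusted p below 0.05, Fth1, Ftl1 and Aco1, where 27.8% of all genes did. That fit leaves out the pairing of RNA and footprints by heart. With the heart as a replicate block 2 of the 6 passed, Ftl1 and Aco1, against 18.6% of all genes.

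**Figure D1:**
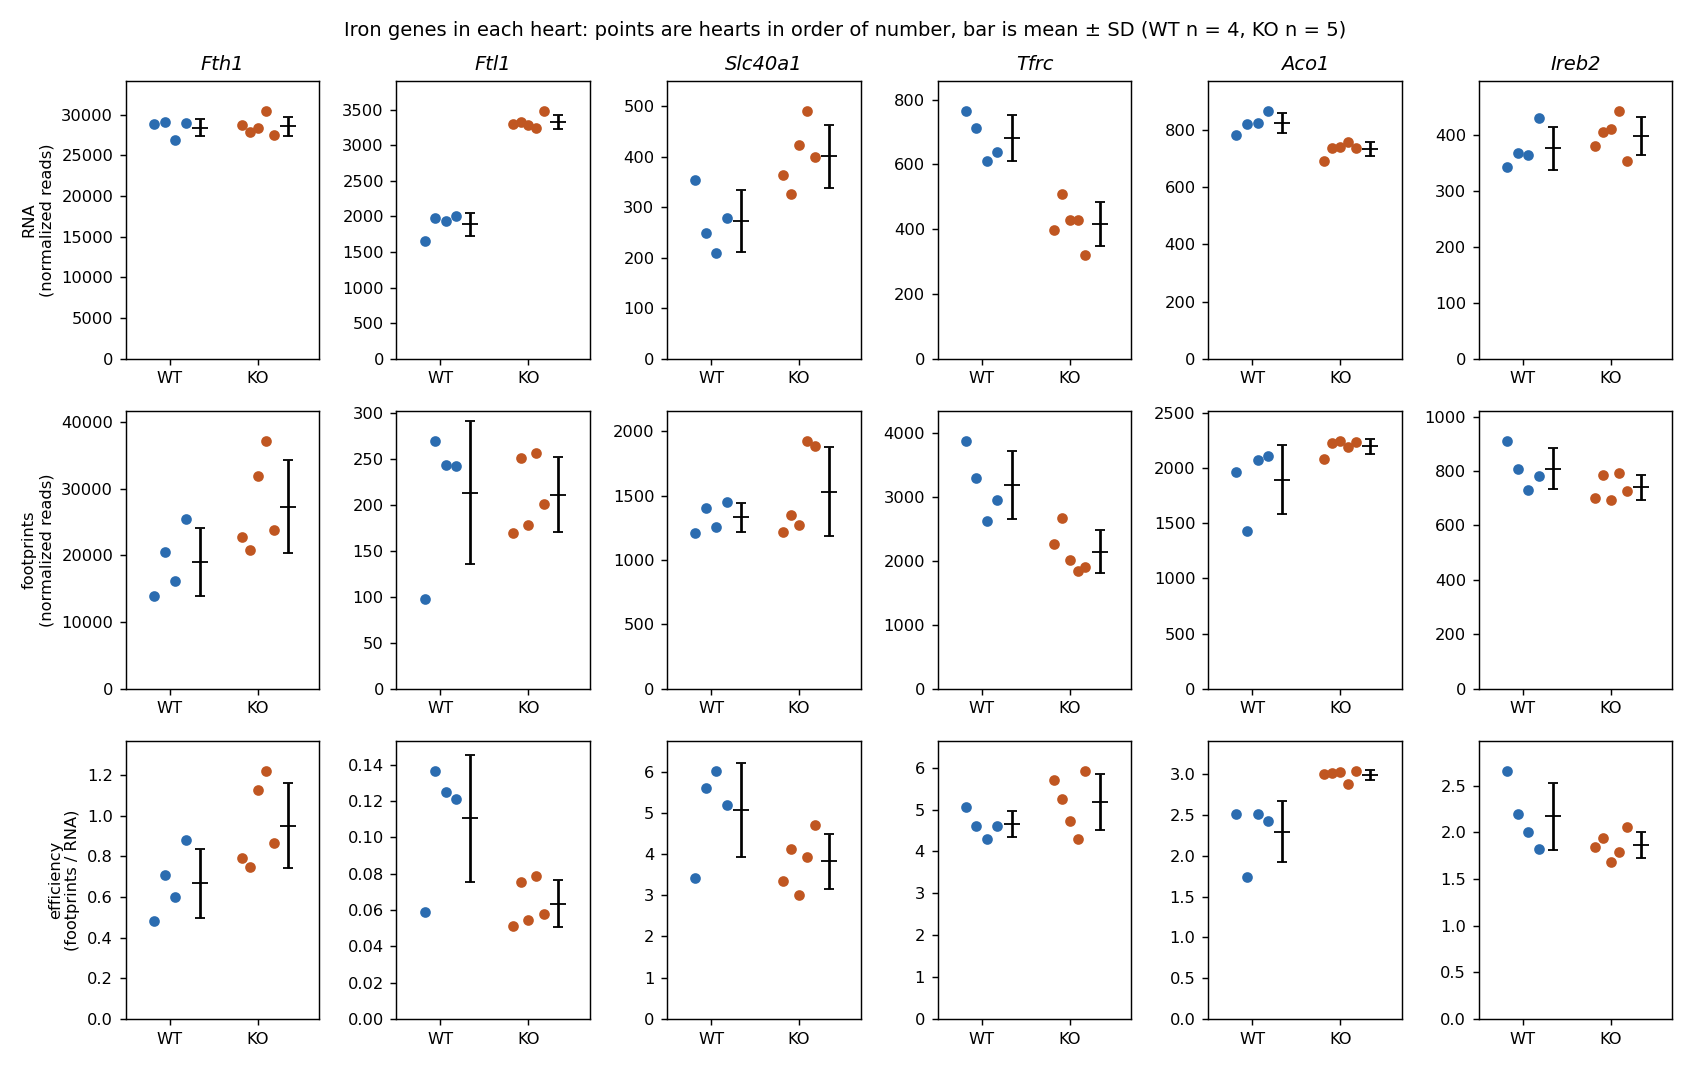
RNA, footprints (both in normalized reads) and efficiency (footprints over RNA) of the 6 iron genes, with 1 point per heart and mean ± SD at the side (wild type n = 4, knockout n = 5); each axis starts at 0. Ftl1 and Tfrc RNA separate the genotypes in opposite directions, while Fth1 RNA stays between 26846 and 30496 in all 9 hearts.

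Ferritin heavy chain transcripts had almost the same mean in both genotypes, while their ribosome footprints were higher on average in knockout and did not pass. Fth1 (ENSMUSG00000024661, chromosome 19, 9980600 to 9985111, GRCm38.p6) had RNA values of 28825, 29133, 26846 and 28936 in wild-type hearts 1 to 4 and of 28707, 27854, 28377, 30496 and 27511 in knockout hearts 6 to 10. The groups overlapped throughout, and the log2 fold change was 0.01 ± 0.05 (SE; adjusted p by limma = 0.913). With quantile normalization it was 0.16, at an adjusted p of 0.0518. Fth1 footprints were 13913, 20542, 16110 and 25504 in wild type and 22754, 20777, 31967, 37177 and 23845 in knockout. Hearts 8 and 9 lay above every wild-type heart, the other 3 knockout hearts within the wild-type range. Over all genes, hearts 8 and 9 differed least of all knockout pairs, in RNA and in footprints (chi-square over degrees of freedom 6.05 and 27.4). The Fth1 footprint mean in knockout was 144% of wild type. The log2 fold change was 0.52 ± 0.18 (SE), which did not pass (adjusted p by limma = 0.851, unadjusted p = 0.0115).

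Fth1 efficiency followed the footprints, since the RNA hardly moved. It was 0.483, 0.705, 0.600 and 0.881 in wild type and 0.793, 0.746, 1.13, 1.22 and 0.867 in knockout. Hearts 8 and 9 were again the only knockout hearts above the wild-type range. The log2 fold change of efficiency was 0.52 ± 0.22 (SE; adjusted p by limma = 0.137, and 0.0514 with the heart as a replicate block). In wild type 22.9% of 9974 genes had a lower log2 efficiency than Fth1, and in knockout 31.6%.

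Ferritin light chain transcripts were higher in every knockout heart than in any wild-type heart, while their footprints overlapped between genotypes and did not pass. Ftl1 (ENSMUSG00000050708, chromosome 7, 45457944 to 45459886) had RNA values of 1654, 1972, 1942 and 2001 in wild type and of 3302, 3327, 3287, 3239.98 and 3484 in knockout. No hearts overlapped, the knockout mean was 176% of wild type, and the log2 fold change was 0.82 ± 0.06 (SE; adjusted p by limma = 1.30e-06). By its p, Ftl1 ranked 135 among 10580 genes in RNA. Ftl1 footprints were 97.6, 269, 243 and 242 in wild type and 169, 251, 178, 256 and 201 in knockout. Wild-type heart 1 was the lowest of all, and the other hearts overlapped. The footprint log2 fold change was 0.07 ± 0.29 (SE; adjusted p by limma = 0.974), and it was -0.27 without wild-type heart 1.

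Ftl1 efficiency was 0.0590, 0.136, 0.125 and 0.121 in wild type and 0.0512, 0.0754, 0.0542, 0.0789 and 0.0577 in knockout. Every knockout heart lay below wild-type hearts 2, 3 and 4, while wild-type heart 1 lay among the knockout hearts. The log2 fold change was -0.75 ± 0.30 (SE) and did not pass (adjusted p by limma = 0.103). It passed with the heart as a replicate block (adjusted p = 0.0325) and without heart 1 (log2 fold change -1.03, adjusted p = 0.00147). The authors' deposited table gives an adjusted p of 0.0231 for it and tags the gene "buffered", while the other 5 iron genes are tagged "unchanged" there. Only 3.24% of genes in wild type and 2.45% in knockout had a lower log2 efficiency than Ftl1.

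Ftl1 values are given as uncertain, since pseudogenes named after it exist and reads may be shared with them. Their sequences were not compared here. One of them, Ftl1-ps1, is listed with RNA of 1792 ± 156 (SD, n = 4) in wild type and 3108 ± 101 (SD, n = 5) in knockout, which is 0.923 to 0.955 of the Ftl1 value in each heart. Its RNA log2 fold change was 0.80 ± 0.06 (SE; adjusted p by limma = 1.87e-06), close to that of Ftl1. The same pseudogene is listed at 0 footprints in all 9 hearts. Ftl1 footprints themselves rest on 78 to 320 whole reads per wild-type library and 205 to 307 per knockout library, where Fth1 has 5952 to 41339. How far reads were shared or dropped between Ftl1 and these pseudogenes in either assay was not tested, so the low Ftl1 efficiency is a property of these counts. For Fth1 the gene name table holds 2 pseudogenes named Fth-ps, neither of them among the 10597 listed genes.

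Ferroportin transcripts rose in knockout, with footprints that overlapped between genotypes. Slc40a1 (ENSMUSG00000025993, chromosome 1, 45908070 to 45926532) had RNA values of 354, 249.95, 209 and 279 in wild type and of 363, 327, 423, 491 and 400.3 in knockout. All knockout hearts but heart 7 exceeded the highest wild-type heart, heart 1. The knockout mean was 147% of wild type and the log2 fold change 0.57 ± 0.15 (SE; adjusted p by limma = 0.00794). Its footprints were 1213, 1401, 1257 and 1448 in wild type and 1218, 1352, 1268, 1924 and 1884 in knockout, with hearts 9 and 10 alone above the wild-type range. The footprint log2 fold change was 0.18 ± 0.16 (SE; adjusted p by limma = 0.857), and it was 0.087 without heart 9 and 0.094 without heart 10. Efficiency was 5.06 ± 1.14 (SD, n = 4) and 3.82 ± 0.669 (SD, n = 5), with a log2 fold change of -0.39 ± 0.23 (SE; adjusted p by limma = 0.288).

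Macrophages, which recycle the iron of red cells, are rich in ferroportin and ferritin, so their markers are given beside these genes. Of 15 macrophage markers 13 were listed, none of them at 0 in all hearts, with 3 higher and 2 lower in RNA (38.5% called, against 49.4% of all genes) and none called in footprints. All 12 macrophage markers tested in footprints had a lower mean log2 value in knockout, with a median log2 fold change of -0.22. This was not particular to them. Footprints were below 0 for 7 of 8 fibroblast (median -0.20), 7 of 8 endothelial (-0.09) and 6 of 6 erythrocyte and reticulocyte markers (-0.21). They were below 0 for 2 of 8 cardiomyocyte and 3 of 6 smooth muscle and pericyte markers. The median of all genes was -0.003. For 3 of the 12 macrophage markers, Lyz2, Ctss and Cd74, at -0.48, -0.49 and -0.52, the unadjusted p was below 0.05, or 25% against 5.06% of all genes. Their summed RNA was 5984 to 6738 normalized reads in wild type and 5435 to 7635 in knockout. Their summed footprints were 33395 to 60623 and 25704 to 38834. The ranges overlapped in both assays, and the part of these cells in the ferritin and ferroportin values was not tested. In bulk tissue, a change in the number of cells of a type and a change in RNA per cell cannot be told apart.

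Transferrin receptor fell in RNA, and its footprints were lower on average by a similar factor. Tfrc (ENSMUSG00000022797, chromosome 16, 32608896 to 32632794) had RNA values of 766, 713, 610.3 and 639.9 in wild type and of 397, 509, 428, 429.7 and 321 in knockout. Every knockout heart lay below every wild-type heart, at a mean of 61.1% of wild type. The log2 fold change was -0.72 ± 0.12 (SE; adjusted p by limma = 0.000396). Tfrc footprints were 3872, 3289, 2629 and 2945 in wild type and 2263, 2672, 2019.7, 1844 and 1902 in knockout. Only knockout heart 7 reached the wild-type range, just above wild-type heart 3.

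The Tfrc footprint mean in knockout was 67.2% of wild type, a log2 fold change of -0.57 ± 0.14 (SE), with an unadjusted p of 0.000873, rank 8 among 9976 genes. Adjusted over all genes it did not pass (adjusted p by limma = 0.851, edgeR on whole reads 0.841, DESeq2 0.150), and the authors' deposited table gives 0.152. Efficiency was 5.06, 4.61, 4.31 and 4.60 in wild type and 5.71, 5.24, 4.72, 4.29 and 5.92 in knockout, which overlap. The log2 fold change of efficiency was 0.15 ± 0.19 (SE; adjusted p by limma = 0.672). Tfrc stood high in efficiency, above 93.2% of genes in wild type and 97.9% in knockout.

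Tfrc is also known to be abundant in immature red cells and in capillary endothelium. Of 8 erythrocyte and reticulocyte markers 6 were listed, none at 0, and 1 of them, Hbb-bs, rose in RNA (16.7% called, against 49.4% of all genes). Their summed RNA was 44261 to 71041 in wild type and 59587 to 89418 in knockout. In footprints none of the 6 was called, all had a log2 fold change below 0 (median -0.21), and the sums overlapped, at 4485 to 15552 and 4343 to 9603. Of 8 endothelial markers 1 rose and 4 fell in RNA, so that 50% fell where 25.1% of all genes did. None was at 0, and their summed RNA was 17375 to 19931 in wild type and 13826 to 16126 in knockout, without overlap. The markers were not alike, and 5 of the 8 had a log2 fold change below 0. The largest falls were those of Ly6c1, from a mean of 3354 to 1384, and Cdh5, from 5291 to 3741. Egfl7 rose by 0.53, and Vwf and Cldn5 were at 0.26 and 0.34, not called. How often sums of other genes fail to overlap was not tested. In footprints none of the 8 was called, and 7 had a log2 fold change below 0 (median -0.09). The summed footprints overlapped, at 25617 to 31542 and 23572 to 28785. The part of endothelial and red cells in the Tfrc values was not tested.

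Of the sensors, Aco1 transcripts were slightly lower in knockout and its ribosome footprints per transcript higher in every knockout heart. The RNA value enters both of these, and the footprints alone did not pass. Aco1 (ENSMUSG00000028405, chromosome 4, 40143265 to 40199009) had RNA values of 781, 822, 824 and 867 in wild type and of 692, 739, 741, 759 and 736 in knockout. The groups did not overlap, at a knockout mean of 89.1% of wild type. The log2 fold change of -0.17 ± 0.05 (SE) passed (adjusted p by limma = 0.0218). The call was lost without wild-type heart 4 (adjusted p = 0.0621), without knockout heart 6 (0.0512) and with quantile normalization (log2 fold change -0.10, adjusted p = 0.131).

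Aco1 footprints were 1961, 1432, 2068 and 2103 in wild type and 2082, 2224, 2244, 2192 and 2238 in knockout. Wild-type heart 2, the shallowest footprint library, was the lowest, and 4 of 5 knockout hearts lay above all wild-type hearts. The footprint log2 fold change was 0.23 ± 0.13 (SE; adjusted p by limma = 0.851), and 0.10 without heart 2. Efficiency was 2.51, 1.74, 2.51 and 2.43 in wild type and 3.01, 3.01, 3.03, 2.89 and 3.04 in knockout, without overlap. The log2 fold change was 0.40 ± 0.13 (SE), and just missed the threshold (adjusted p by limma = 0.0506). It passed with the heart as a replicate block (0.0400), with no filter on low values (0.0426) and with a minimum mean of 100 (0.0462), and the authors' deposited table gives 0.0575. Leaving out single hearts gave log2 fold changes of 0.27 to 0.45 and adjusted p from 0.0646 to 0.0953.

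Ireb2, the sensor that is degraded when iron is plentiful, passed in none of the 3 measures. Ireb2 (ENSMUSG00000032293, chromosome 9, 54862658 to 54912534) had RNA values of 342, 367, 363 and 430.2 in wild type and of 379, 405, 411, 443 and 353 in knockout, with a log2 fold change of 0.08 ± 0.09 (SE; adjusted p by limma = 0.445). Its footprints were 911, 808, 730.3 and 783 in wild type and 701, 786, 692, 793 and 727 in knockout, with a log2 fold change of -0.12 ± 0.14 (SE; adjusted p by limma = 0.881), or -0.066 without heart 1. Both sets of values overlapped between genotypes. Efficiency was 2.17 ± 0.360 (SD, n = 4) and 1.87 ± 0.144 (SD, n = 5), with a log2 fold change of -0.21 ± 0.14 (SE; adjusted p by limma = 0.363).

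**Figure D2:**
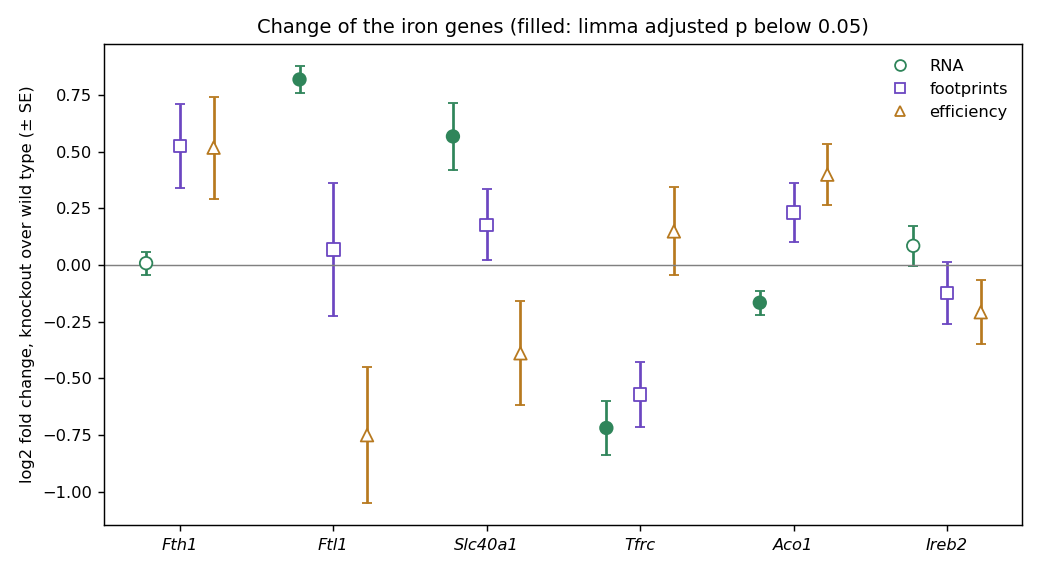
Log2 fold change (knockout over wild type, ± SE) of each iron gene in RNA, footprints and efficiency; filled symbols passed limma at an adjusted p below 0.05. Only the RNA values of Ftl1, Slc40a1, Tfrc and Aco1 are filled, at 0.82, 0.57, -0.72 and -0.17.

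**Figure D3:**
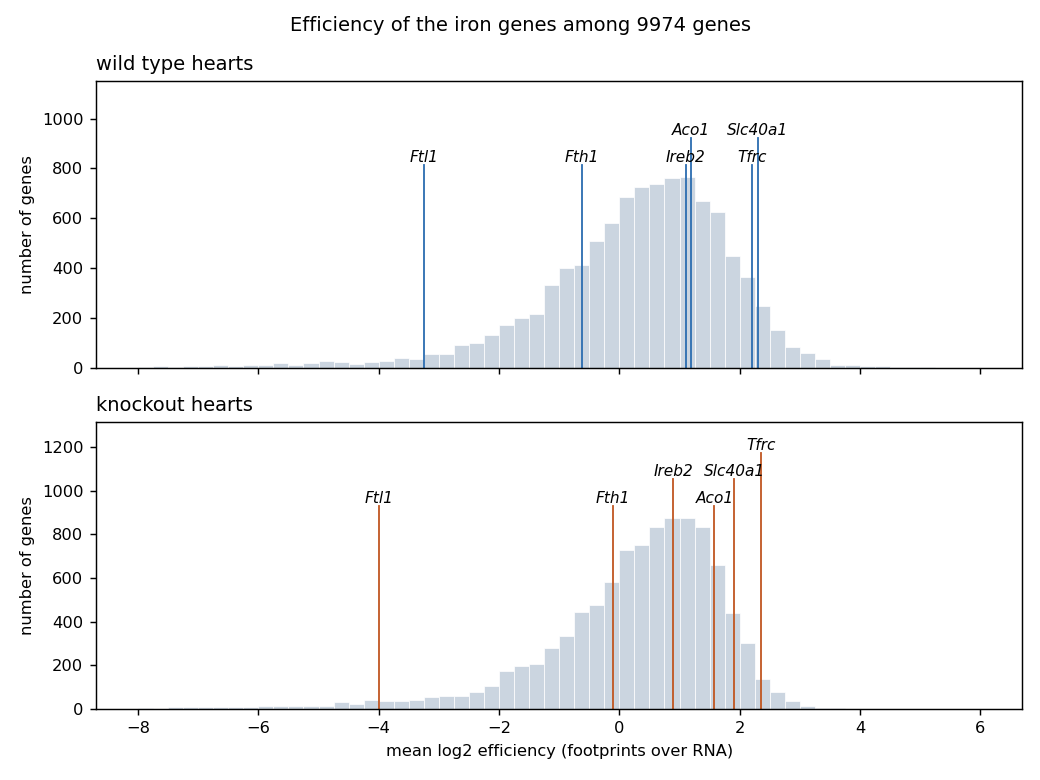
Histograms of mean log2 efficiency over the 9974 genes tested, in wild-type (top) and knockout hearts (bottom), with lines at the 6 iron genes. In both genotypes Ftl1 and Fth1 lie below the median of all genes (0.50 in wild type, 0.54 in knockout), and the other 4 genes above it.

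The order of efficiency among the 6 genes is given as it stands in these values. Transcript length enters both footprints and RNA. The regions the authors counted over are not given in the sources used here, so length may not cancel between genes. From low to high in wild type, mean log2 efficiency was -3.24 for Ftl1, -0.62 for Fth1, 1.10 for Ireb2, 1.18 for Aco1, 2.21 for Tfrc and 2.30 for Slc40a1. In knockout it was -3.99 for Ftl1, -0.10 for Fth1, 0.89 for Ireb2, 1.58 for Aco1, 1.91 for Slc40a1 and 2.36 for Tfrc. Neighbours whose wild-type hearts overlapped in efficiency were Ireb2 and Aco1, and Tfrc and Slc40a1, and among knockout hearts Aco1 and Slc40a1, and Slc40a1 and Tfrc. The ferritin chains thus had the fewest footprints per RNA read, and Tfrc and Slc40a1 the most. This holds within the limit of the unknown counted regions and the one given for Ftl1.

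Ratios between 2 genes of the same library do not depend on library scaling, and 6 such ratios were tested with exact two-sided permutation tests over the 9 hearts, in which 0.0159 is the smallest p that the 126 arrangements allow. Their absolute size depends on gene length, so only the shift between genotypes is read. The log2 Ftl1 to Fth1 ratio in RNA rose from -3.91 ± 0.146 (SD, n = 4) to -3.10 ± 0.0921 (SD, n = 5). The groups did not overlap, at a 1.75-fold shift (exact p = 0.0159, adjusted over the 6 ratios 0.0476). Since Fth1 RNA hardly moved, this shift restates that of Ftl1 RNA and is no separate support for it. The limits given for Ftl1, its pseudogenes and its few footprint reads, hold for this ratio in both assays. In footprints the same ratio was -6.54 ± 0.493 (SD, n = 4) and -7.00 ± 0.413 (SD, n = 5), which overlapped (exact p = 0.159, adjusted 0.159).

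Transferrin receptor relative to ferritin heavy chain was lower in knockout in both assays. The log2 Tfrc to Fth1 ratio in RNA ranged from -5.50 to -5.23 in wild type and from -6.42 to -5.77 in knockout. That is a fall to 0.604 of the wild-type ratio (exact p = 0.0159, adjusted 0.0476). With Fth1 RNA nearly unchanged, it restates the fall of Tfrc RNA. In footprints the Tfrc to Fth1 ratio ranged from -3.11 to -1.85 in wild type and from -4.33 to -2.96 in knockout. Only knockout heart 7 lay within the wild-type range, above wild-type heart 4. The fall in footprints was to 0.468 of the wild-type ratio, or -1.10 ± 0.36 on the log2 scale (SE; exact p = 0.0317, adjusted 0.0476). Its exact p before adjustment rose to between 0.0571 and 0.0714 without any 1 of hearts 1, 2, 3, 6, 8, 9 and 10, while the shift stayed between -1.28 and -0.86 with any 1 heart left out.

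Ireb2 relative to Aco1 was higher in knockout in RNA and lower on average in footprints. In RNA the log2 ratio was -1.14 ± 0.0842 (SD, n = 4) in wild type and -0.89 ± 0.105 (SD, n = 5) in knockout, a 1.19-fold rise with overlap at knockout heart 10 (exact p = 0.0317, adjusted 0.0476). Without any 1 of hearts 1, 2, 3, 6, 7, 8 and 9 the exact p before adjustment was 0.0571 to 0.0714. In footprints the ratio was -1.21 ± 0.310 (SD, n = 4) and -1.57 ± 0.0924 (SD, n = 5), a value of 0.781 of wild type that missed the threshold once adjusted (exact p = 0.0476, adjusted 0.0571). A test of the difference between the assays was not run on any of the ratios.

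**Figure D4:**
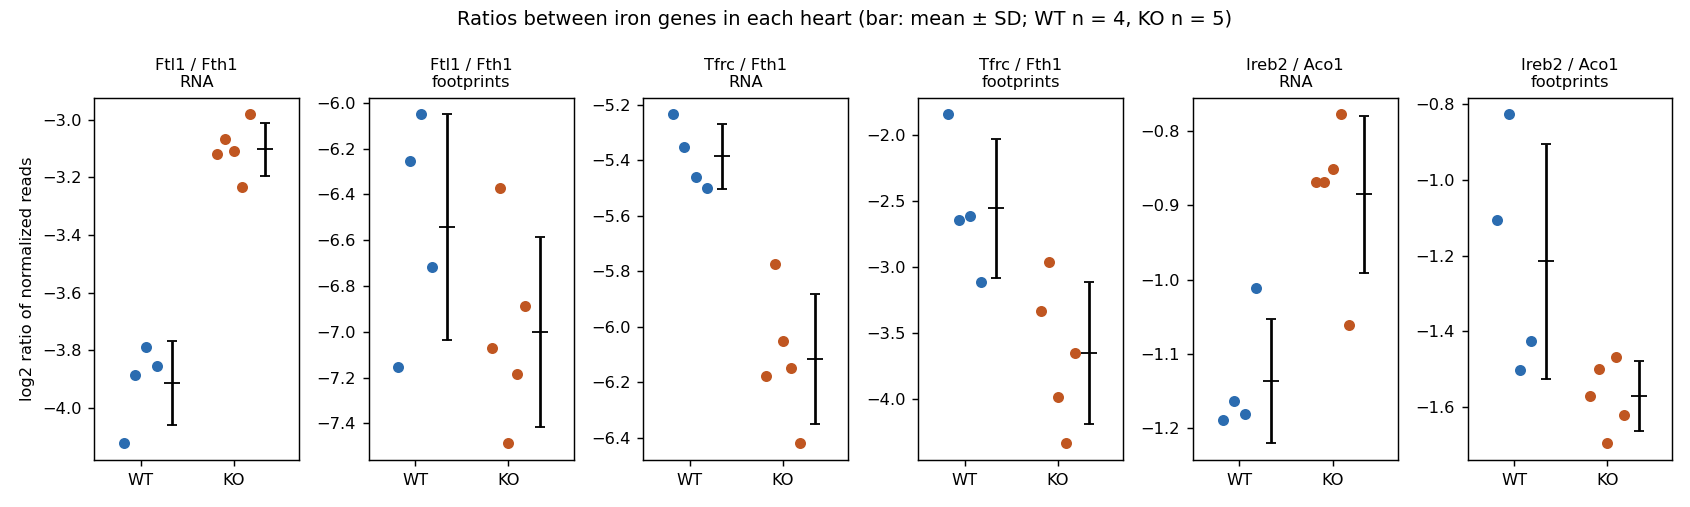
Log2 ratio of normalized reads for 3 pairs of iron genes in RNA and in footprints, 1 point per heart with mean ± SD at the side (wild type n = 4, knockout n = 5). Tfrc over Fth1 is lower on average in knockout in both assays, by 0.73 on the log2 scale in RNA and by 1.10 in footprints. In footprints knockout heart 7 lies within the wild-type range. Ftl1 over Fth1 is higher in knockout in RNA and overlaps between genotypes in footprints, within the limits given for Ftl1 in the text.

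Of 64 further genes of iron metabolism 54 were tested, with 20 higher and 9 lower in RNA, or 53.7% against the 49.4% of all genes. None passed in footprints with limma, where 3 had an unadjusted p below 0.05, or 5.56% against 5.06% of all genes. In efficiency 2 rose and 6 fell, or 14.8% against 14.4%. These shares are near those of all genes. The median log2 fold change of the 54 genes was 0.15 in RNA, 0.03 in footprints and -0.12 in efficiency, against 0.01, -0.00 and -0.02 over all genes.

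Of 5 other transcripts reported to carry iron-responsive elements, 1 changed in RNA, or 20% against 49.4% of all genes. Slc11a2, the divalent metal transporter DMT1 that moves iron out of endosomes, rose by 0.41 ± 0.08 on the log2 scale (SE; adjusted p by limma = 0.000899). Epas1, the hypoxia factor HIF-2 alpha, was at 0.08 in RNA and 0.19 in footprints. Alas2, the erythroid enzyme that opens heme synthesis, was at 0.12 and -0.36, and Cdc42bpa at -0.13 and 0.02. None of the 5 was called in footprints or efficiency.

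Among 7 genes of iron uptake and reduction 3 rose in RNA and none fell, or 42.9% called against 49.4% of all genes. Slc48a1, a heme transporter, rose by 0.81 ± 0.11 (SE), Trf, transferrin, by 0.45 ± 0.11 and Hfe, the hemochromatosis protein that binds the transferrin receptor, by 0.32 ± 0.11 (adjusted p by limma of 0.0290 or less). Steap4, a metalloreductase, was at 0.19 in RNA and 0.30 in footprints and passed in neither. Of 4 genes of iron release and its control 1 rose and 2 fell, or 75% called in RNA. Hfe2, hemojuvelin, a co-receptor for bone morphogenetic proteins that is expressed in muscle, rose by 0.38 in RNA and fell by 0.67 in efficiency (adjusted p by limma = 0.000119 and 0.0227). Bmp6, a ligand that induces hepcidin, fell by 0.55 and Cp, the ferroxidase ceruloplasmin, fell by 0.40 (adjusted p by limma = 0.000230 and 0.0288). Cp footprints were at -0.41, not called.

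Among 7 genes of ferritin handling, 3 rose and 1 fell in RNA, or 57.1% called against 49.4% of all genes. The iron chaperones Pcbp2 and Pcbp1 rose by 0.31 and 0.19, and Herc2, a ubiquitin ligase, rose by 0.17 (adjusted p by limma of 0.0448 or less). Nfe2l2 (NRF2), a transcription factor known to act on ferritin genes, fell by 0.37 in RNA and rose by 0.46 in efficiency (adjusted p by limma = 0.00153 and 0.0217). Ncoa4, the receptor that carries ferritin to lysosomes, was at 0.06 and Fbxl5, the ligase subunit that marks Ireb2 for degradation, at 0.16, and neither passed. Of 4 genes of heme breakdown, Hmox1, the inducible heme oxygenase, rose by 0.71 ± 0.18 (SE; adjusted p by limma = 0.00527) with footprints at 0.03, and the other 3 did not pass. That is 25% of the 4 called in RNA, against 49.4% of all genes.

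Of 27 genes of mitochondrial iron transport and iron-sulfur cluster assembly, 11 rose and 6 fell in RNA, and 1 rose and 5 fell in efficiency. That is 63.0% called in RNA against 49.4% of all genes, and 22.2% in efficiency against 14.4%. The ferredoxin Fdx1 rose by 0.65 ± 0.07 (SE) in RNA and fell by 0.95 in efficiency, and the inner membrane transporter Abcb8 rose by 0.64 and fell by 0.51. Isca1, an assembly factor, rose by 0.70 in RNA, and Fam96b, which hands clusters to cytosolic and nuclear proteins, fell by 0.40. Fdx1l, Nubp2 and Glrx5 fell by 0.92, 0.93 and 0.47 in efficiency, and the mitochondrial chaperone Hspa9 rose by 0.44. The adjusted p by limma was 0.0419 or less for each. In each of these 6 efficiency calls the RNA log2 fold change had passed in the opposite direction, and RNA enters both tests.

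**Figure D5:**
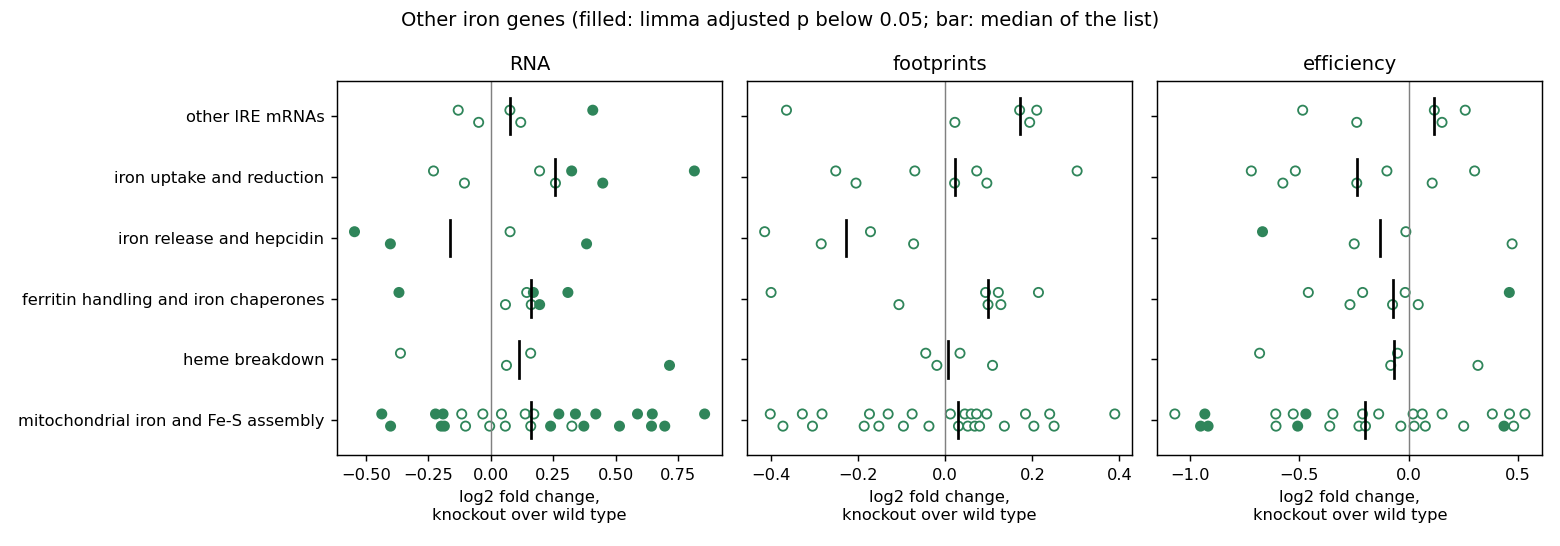
Log2 fold change (knockout over wild type) of 54 further iron genes in RNA, footprints and efficiency, by list, with 1 point per gene, filled where the adjusted p by limma was below 0.05, and a bar at the median of the list. Filled points appear in RNA and efficiency and none in footprints, and the median of the 27 mitochondrial genes is 0.16 in RNA and -0.20 in efficiency.

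Genes whose RNA followed an iron gene most closely over the 9 hearts were taken from 9137 genes with a mean of at least 100, by Pearson's r of log2(value + 1), which includes the genotype difference and shares the libraries. For Ftl1 the closest was Ftl1-ps1, at r of 1.00, and then Gm5422, at 0.992. For Fth1 they were Mbip, at 0.915, and Slc25a28 (mitoferrin-2, an iron carrier of mitochondria), at 0.885. Tfrc was followed by Peak1 and Rasgrf2, at 0.978 and 0.973, and Slc40a1 by Sord and Wdsub1, at 0.968 and 0.960. For Aco1 they were Cfap298 and Cttn, both at 0.984, and for Ireb2 Npc1 and Rpap3, at 0.952 and 0.947.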

How the data were processed

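RNA and ribosome footprints of 9 left ventricles (18 libraries) were used. The submitters' processing notes name the build GRCm38 (mm10) and the tools HTSeq, DESeq2 and STAR 2.7.1a without their roles. For both assays the deposited values are a normalized signal with 1 column per heart, per the file headers, and the values show that the authors divided whole reads by 1 size factor per library. The deposited efficiency table holds the ratio of both, within 0.0497% of the quotient. The authors' deposited log2 fold change for efficiency is wild type over knockout (sign opposite to the values in 94.8% of genes), and its sign was turned here. The deposited tables also give a p-value and an adjusted p-value per gene. Dividing the values by their step gave whole reads for 100% of values (tolerance 0.01 reads). Count tests were run for footprints only, since knockout RNA columns hold too few low values to check the step by them alone.

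Values were tested on log2(value + 1) with limma 3.58.1 (R 4.3.3, mean-variance trend), with a minimum mean of 10 and Benjamini-Hochberg adjustment over all genes tested, 10580 in RNA, 9976 in footprints and 9974 in efficiency. Efficiency was the genotype by assay interaction over 18 libraries, with no heart term in the main fit. The main efficiency SE and p thus leave out the pairing of RNA and footprints by heart, which the replicate block includes. The functions were tested on simulated data. edgeR 4.0.16 and DESeq2 1.42.0 were run on the whole footprint reads and called 2 and 6 genes in all. The labels tie RNA and footprints to 1 heart by its number. Deviations from the genotype mean correlated at 0.277 to 0.662 within a heart over 3233 genes. Replicates are separate hearts, and counts of any pair of a genotype differed beyond counting noise. The lowest chi-square over its degrees of freedom was 6.05, between knockout hearts 8 and 9 in RNA.

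Gene names matched 10560 of 10597 identifiers, and coordinates and promoters are RefSeq's. The members, lists, ratios and rules were chosen with earlier results of these data known. Named beside the 6 genes are up to 4 genes of a list with the smallest adjusted p in RNA, all called in footprints or efficiency, the 2 genes most like each member, and a few with known roles, picked by role. Alternatives were other pseudocounts (0.5 and 10), minimum means, scalings, no trend, the replicate block, count tests, the deposited results and leaving out each heart. The values of 1 listed gene are not reported here.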

Additional observations from a re-analysis of the deposited data

Results flagged for a closer look

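In 5 of 36 groups of values (6 genes, 3 measures, 2 genotypes) the lowest heart stood apart from the rest of its genotype by Dixon's test at 95%, which chance gives for about 1 in 20 groups. Wild-type heart 1 was the lowest for Ftl1 in RNA, at 1654 normalized reads, and in footprints, at 97.6, so these 2 flags share a heart. Wild-type heart 3 was the lowest for Fth1 RNA, at 26846. For Aco1 efficiency the low hearts were wild-type heart 2, at 1.74, and knockout heart 9, at 2.89, a value that still lay above all wild-type hearts.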

How the results depend on the processing

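The RNA rises of Ftl1 and Slc40a1 and the fall of Tfrc passed under every alternative run, with log2 fold changes of 0.75 to 0.85, 0.45 to 0.70 and -0.80 to -0.63 over the fits that left out 1 heart. The number of the 6 genes called in RNA was 3 or 4 throughout, in footprints 0. In efficiency it was 1 with no filter on low values, 1 with a minimum mean of 100, 2 with the replicate block, 1 in the authors' deposited table, and 0 to 1 with a heart left out. Directions turned for values near 0: Ftl1 footprints were at -0.0019 with edgeR, -0.0003 with DESeq2 and -0.00011 in the authors' deposited table, and from -0.27 to 0.21 with a heart left out, as Fth1 RNA was from -0.020 to 0.021. With a heart left out, the log2 shift was -1.28 to -0.86 for Tfrc to Fth1 in footprints, 0.22 to 0.30 for Ireb2 to Aco1 in RNA and -0.45 to -0.23 in footprints, with exact p of up to 0.0714, 0.0714 and 0.107. Fewer hearts allow fewer arrangements in these tests. The paired fit with the replicate block changed the call of Ftl1 and Aco1 efficiency and of no other of the 6 genes. Of all single-gene values recomputed, 307 kept direction and side of the threshold, 6 passed only in the alternative, 3 were lost and 8 turned. The depth of wild-type heart 2 limits Ftl1 footprints, which rest on 78 reads there.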
